A study of Mus musculus with 7 samples.

Results

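Of 9 genes that carry the first steps of B cell receptor signalling, 8 could be followed in germinal centre B cells of RRas2-deficient and wild-type (WT) mice, among 21515 genes named on the array. The 9 were taken by name: the receptor's signalling chains Cd79a and Cd79b, the kinases Syk, Lyn, Blk and Btk, the adaptor Blnk, and the enzymes Plcg2 and Vav1. A gene counted where a probe of the array has it as its single gene symbol. Each of the 8 had 1 such probe and all 8 were bright enough to be tested, while Lyn was not analysed here. In all 8 the RRas2-deficient and WT arrays overlapped, where 1.08% of all 16136 tested genes had no overlap. The test between genotypes passed 0 of 8, against 0.0124% of all tested genes.

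The B cell receptor is a surface immunoglobulin held by the CD79A and CD79B chains, whose tails carry paired tyrosines. Src family kinases such as LYN and BLK phosphorylate these tyrosines, SYK docks on them, and SYK then phosphorylates the adaptor BLNK. On BLNK the kinase BTK activates PLC-gamma2, which releases calcium, and the exchange factor VAV1 activates RAC GTPases. Germinal centre B cells use the receptor both to signal and to take up antigen for presentation to T cells, and their receptor signalling is known to be damped compared with that of naive B cells.

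The samples were 3 arrays of RRas2-deficient cells and 4 of WT cells, each a biological replicate per the labels. RRas2-deficient mice lack the small GTPase R-Ras2, and the sample descriptions call them Rras-deficient, while titles and genotype fields give RRas2. Every mouse had been given sheep red blood cells 7 days earlier, a T cell-dependent immunogen, and splenic B220+CD95+GL7+ B cells were then sorted. The allele, its reach over cell types, strain, age and number of mice behind an array are not given in the labels, so the p-values measure only the spread between these samples. Total RNA was labelled with biotin and read on 1 Affymetrix array per sample as log2 intensities, where 1 unit is a 2-fold change. The number of arrays limits the precision. Levels of different probes are not compared as amounts of RNA, and differences between 2 probes on an array are only compared between genotypes.

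Promoter sequences are shown for Cd79a, Blnk and Vav1, since ETS factors are among those known to drive B lineage genes. These are the members whose window holds the ETS motif AGGAAGT in this exact form, and other forms were not searched. Each is the 250 bases before the gene's start in RefSeq (GRCm38.p6), written on the gene's own strand, 5′ to 3′. Capitals mark AGGAAGT and, in Blnk, the octamer core TTTGCAT that OCT factors bind. Cd79a lies at chr7:24897247-24897496 on the plus strand, Blnk at chr19:40994222-40994471 on the minus strand and Vav1 at chr17:57278850-57279099 on the plus strand.
Cd79a: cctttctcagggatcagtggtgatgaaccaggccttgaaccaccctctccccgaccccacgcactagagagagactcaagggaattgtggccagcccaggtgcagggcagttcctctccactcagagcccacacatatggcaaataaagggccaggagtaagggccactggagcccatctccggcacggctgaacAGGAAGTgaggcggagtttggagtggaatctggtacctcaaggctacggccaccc
Blnk: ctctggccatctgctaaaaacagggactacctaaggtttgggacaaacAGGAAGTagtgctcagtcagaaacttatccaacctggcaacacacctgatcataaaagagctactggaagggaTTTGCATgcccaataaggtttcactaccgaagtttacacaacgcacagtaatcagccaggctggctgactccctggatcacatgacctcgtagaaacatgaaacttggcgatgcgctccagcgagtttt
Vav1: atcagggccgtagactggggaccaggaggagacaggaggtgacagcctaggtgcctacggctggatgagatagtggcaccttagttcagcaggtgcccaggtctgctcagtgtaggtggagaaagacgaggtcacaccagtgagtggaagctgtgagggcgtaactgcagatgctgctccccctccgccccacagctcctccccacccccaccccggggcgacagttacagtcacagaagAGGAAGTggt

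The RefSeq table held 7 such windows for 6 of the members, Syk having 2. On both strands, AGGAAGT was found in 3 of the 6 members and in 7.69% of all 32851 windows of that length. It lay 55 to 49 bases before the start in Cd79a, 202 to 196 in Blnk and 10 to 4 in Vav1. TTTGCAT was found in Blnk, 129 to 123 bases before the start, and in 4.12% of all windows. The E-box CAGGTG, a form that E2A binds, was found in Cd79a, Plcg2, Syk, Vav1 and Blnk, and in 17.2% of all windows. The GC box GGGCGG was found in Plcg2 and Vav1 (32.7% of all windows), and CCCNNGGG, the core of the EBF site, in Vav1 (11.8%). TGTGGT, which RUNX factors bind, was in no member's window (14.0% of all windows), and the window of Btk held none of the 6 motifs. No motif found overlapped another of the 6, and a match describes letters, not a bound site.

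Both genotypes had arrays of 2 kinds, told apart by their spread of values, and several members followed the kind of array. The interquartile range of log2 intensities was 2.69 to 2.91 on 4 wide arrays, RRas2-deficient replicates 1 and 3 and WT replicates 3 and 4. It was 2.37 to 2.49 on 3 narrow arrays, RRas2-deficient replicate 2 and WT replicates 1 and 2. The labels name no property that separates the sets, so the genotype difference of each member is given both without and with the set as a block in the limma model. Rras2, the targeted gene, read 6.93, 6.68 and 7.12 in RRas2-deficient replicates 1 to 3, against 7.13, 7.41, 8.66 and 8.39 in WT replicates 1 to 4. All 3 RRas2-deficient arrays lay below all 4 WT arrays, though the nearest, at 7.12 and 7.13, were almost equal, and 1.08% of all tested genes had no overlap. On each RRas2-deficient array the probe read above the limit for dim genes (3.48). The difference of -0.99 ± 0.39 (log2, limma SE) did not pass over all genes (limma adjusted p = 1.00). With the set as a block it was -1.13 ± 0.20 (limma adjusted p = 0.296), and it was -1.50 within the wide and -0.59 within the narrow arrays. Leaving out 1 array without the block gave -1.24 (without WT replicate 1) to -0.73 (without WT replicate 3).

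Cd79a, which with Cd79b forms the signalling unit of the receptor, was lower in the mean in RRas2-deficient cells. It read 11.68, 11.33 and 11.56 in RRas2-deficient replicates 1 to 3, against 11.32, 11.36, 12.08 and 12.05 in WT replicates 1 to 4. The genotypes overlapped, because the narrow arrays of both were alike, while both wide RRas2-deficient arrays lay below both wide WT arrays. The means were 11.52 ± 0.18 (SD, n = 3) in RRas2-deficient and 11.70 ± 0.42 (SD, n = 4) in WT cells, a log2 difference of -0.18 ± 0.23 (SE, limma adjusted p = 1.00). With the set as a block it was -0.27 ± 0.11 (limma adjusted p = 0.471). The difference was -0.44 within the wide arrays and -0.01 within the narrow ones. Cd79a shares chromosome 7 with Rras2, where 1125 of the 2030 protein-coding genes lie between them in gene order.

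Cd79b, the partner chain, did not share that pattern as clearly. It read 11.36, 10.96 and 11.40 in RRas2-deficient replicates 1 to 3, against 10.89, 10.98, 11.57 and 11.44 in WT replicates 1 to 4. The highest array was a WT one and so was the lowest. The means of 11.24 ± 0.25 (SD, n = 3) in RRas2-deficient and 11.22 ± 0.34 (SD, n = 4) in WT cells differed by 0.02 ± 0.21 (log2, limma SE), and by -0.06 ± 0.08 with the block.

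Syk, the kinase that docks on the phosphorylated chains, had the lowest unadjusted p of the members without the block, while Cd79a had it with the block. Its replicates were the closest together of the 8 members in both genotypes. It read 10.00, 9.91 and 10.05 in RRas2-deficient replicates 1 to 3, against 9.77, 9.81, 9.84 and 9.94 in WT replicates 1 to 4. RRas2-deficient replicate 2 lay between the 2 highest WT arrays and the other 2 RRas2-deficient arrays lay above all WT arrays. The means were 9.99 ± 0.07 (SD, n = 3) in RRas2-deficient and 9.84 ± 0.07 (SD, n = 4) in WT cells. The log2 difference of 0.14 ± 0.08 (SE) did not pass (limma adjusted p = 1.00). It was 0.13 within the wide arrays, 0.12 within the narrow ones and 0.13 ± 0.07 with the block. Syk is also expressed by myeloid cells. The mean log2 intensity of 14 myeloid and dendritic markers was 4.57 to 5.01 on RRas2-deficient arrays and 4.54 to 4.86 on WT arrays. Like Syk, it was highest on RRas2-deficient replicate 3, but the order of the other arrays differed. On RRas2-deficient replicate 1 it was 4.57 where Syk read 10.00, and on WT replicate 2 it was 4.86 where Syk read 9.81. Among these markers Cd14 and S100a8 were below the limit for dim genes, and their part in the Syk values was not tested.

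Blk, a Src family kinase found mainly in B cells, was level between genotypes. It read 9.17, 9.03 and 9.12 in RRas2-deficient replicates 1 to 3, against 8.81, 9.17, 9.27 and 9.25 in WT replicates 1 to 4. All RRas2-deficient arrays fell inside the WT range, whose lowest value was WT replicate 1. The log2 difference was -0.02 ± 0.13 (limma SE), and -0.06 ± 0.11 with the block.

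Btk, the Tec family kinase whose loss in humans stops B cell development, varied more between the array sets than between genotypes. It read 9.02, 8.33 and 9.20 in RRas2-deficient replicates 1 to 3, against 8.25, 8.65, 9.10 and 9.23 in WT replicates 1 to 4. All 4 wide arrays lay above the 3 narrow ones, and the genotypes overlapped over nearly their whole range. The log2 difference was 0.04 ± 0.30 (limma SE), and -0.08 ± 0.12 with the block.

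Blnk, the adaptor that gathers BTK, PLC-gamma2 and VAV1, had the widest range of the members. It read 10.30, 9.42 and 10.22 in RRas2-deficient replicates 1 to 3, against 9.37, 9.48, 10.37 and 10.16 in WT replicates 1 to 4. The 3 narrow arrays lay within 9.37 to 9.48 and the 4 wide arrays within 10.16 to 10.37, whichever the genotype. The log2 difference was 0.14 ± 0.33 (limma SE), and -0.0041 ± 0.086 with the block. When each array's interquartile range entered the model as a number instead, the difference was 0.20 ± 0.09 (limma adjusted p = 0.942).

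Plcg2, which encodes the phospholipase that makes the calcium-releasing messenger, also showed no separation. It read 9.68, 9.52 and 9.74 in RRas2-deficient replicates 1 to 3, against 9.22, 9.65, 9.95 and 9.79 in WT replicates 1 to 4. The RRas2-deficient arrays fell inside the WT range. The log2 difference was -0.01 ± 0.18 (limma SE), and -0.06 ± 0.12 with the block.

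Vav1, the exchange factor for RAC GTPases, was lower in the mean in RRas2-deficient cells. It read 8.68, 8.55 and 8.74 in RRas2-deficient replicates 1 to 3, against 8.48, 8.91, 8.88 and 8.78 in WT replicates 1 to 4. All 3 RRas2-deficient arrays lay below 3 of the WT arrays and above WT replicate 1. The log2 difference of -0.11 ± 0.13 (limma SE) was -0.13 ± 0.11 with the block, and -0.12 within the wide and -0.14 within the narrow arrays.

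**Figure D1:**
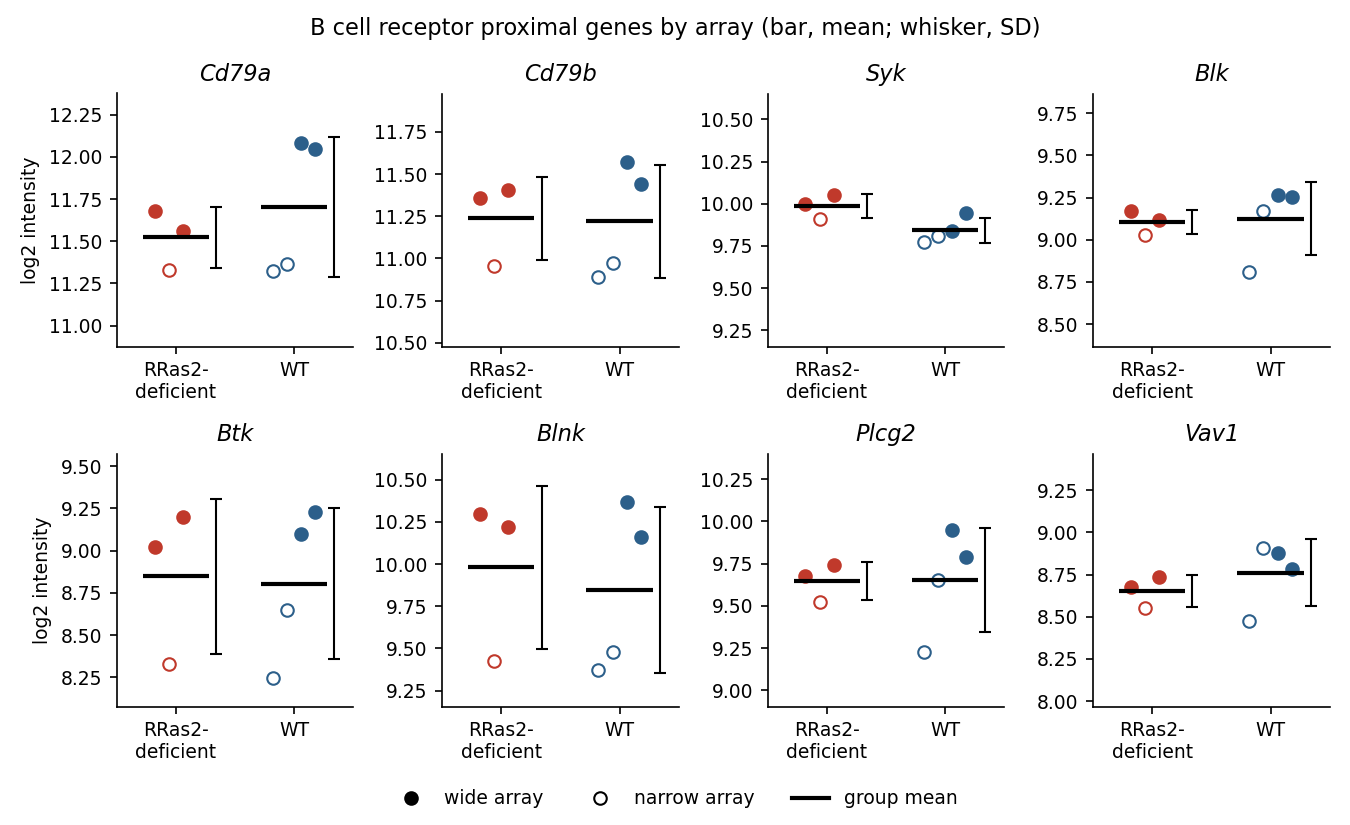
Log2 intensity of each of the 8 members, 1 panel a gene, each spanning 1.5 log2 units, with RRas2-deficient arrays on the left and WT arrays on the right. Points are arrays (filled, wide; open, narrow), bars are group means and whiskers are SD (n = 3 and 4). In Btk and Blnk the open points lie below the filled ones in both genotypes, while the Syk points of RRas2-deficient cells lie high in a narrow band.

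Of the 8 members, 4 had higher and 4 lower means in RRas2-deficient cells, and the median log2 difference was 0.01, against 0.00 over all 16136 tested genes, 51.7% of which were higher. The limma test called 0 of 8 at an adjusted p under 0.05, where 2 of 16136 genes (0.0124%) were called. At an unadjusted limma p under 0.05 it had 0 of 8, against 0.818% of all tested genes (0.521% higher and 0.297% lower). The genotypes overlapped in all 8, and 1.08% of tested genes had no overlap. An exact two-sided permutation test over the 35 splits of the arrays was run for each member. Its 8 unadjusted p-values ran from 0.0857 for Syk to 0.971 for Plcg2, where 0.0286 is the smallest it can give.

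The 95% limma intervals show what size of difference these arrays leave possible. They reached from -0.74 (Cd79a) to 0.91 (Blnk), that is from 1.67-fold lower to 1.88-fold higher. The interval of Syk was the narrowest, from -0.05 to 0.34, which allows a level up to 1.27-fold higher or 1.04-fold lower in RRas2-deficient cells. With the set as a block, 7 members were lower and 1, Syk, was higher, where 49.1% of all tested genes were higher. The median was -0.06, against 0.00 over all tested genes. In that model 1 of 8, Cd79a, had an unadjusted limma p under 0.05, against 10.1% of all tested genes (6.24% lower and 3.89% higher), and 0 of 8 were called, against 0.0124%. The blocked interval of Cd79a ran from -0.53 to -0.02 before adjustment for the number of genes. In the same model all 8 measured germinal centre B cell markers were lower too (median -0.16). Of these, 3 had an unadjusted limma p under 0.05. Of 7 measured follicular B cell markers 6 were higher and 1 lower (median 0.23), with 1 under that p. The part of these markers in the blocked differences of the members was not tested. On the wide arrays alone, both RRas2-deficient arrays lay below both WT arrays for Cd79a, Cd79b, Blk, Plcg2 and Vav1 (18.5% of tested genes) and above both for Syk (14.3%).

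**Figure D2:**
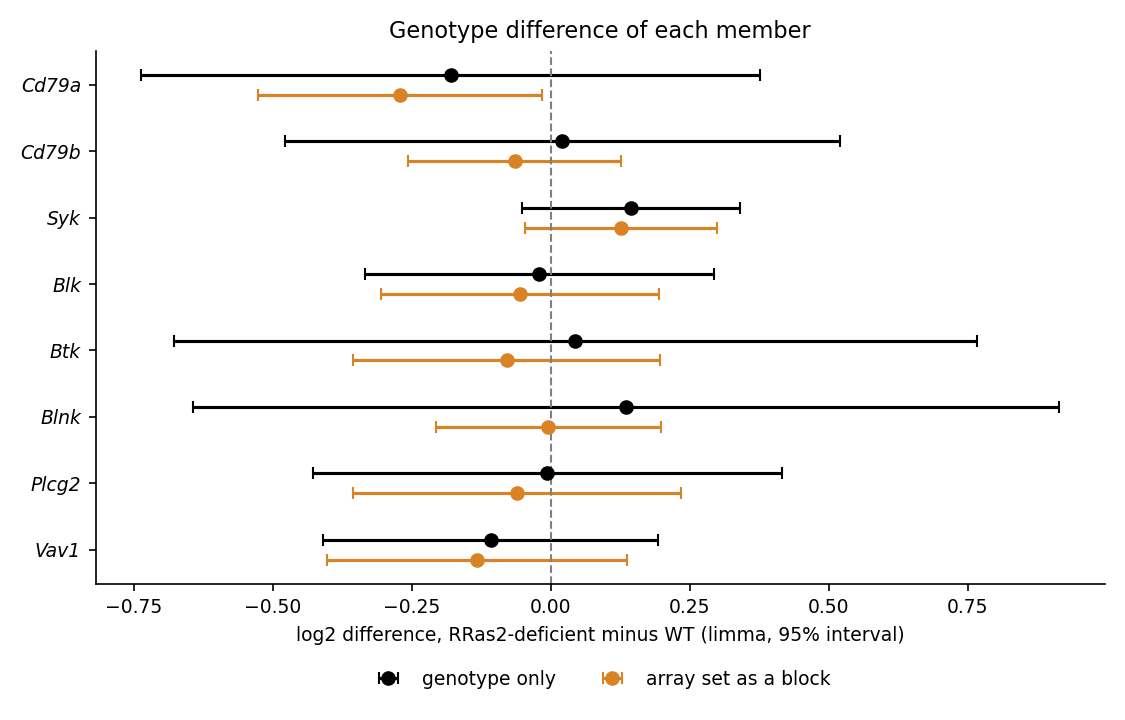
Log2 difference, RRas2-deficient minus WT, of each member with its 95% limma interval, from the model with genotype only (black) and with the array set as a block (orange). The black intervals all span 0, and of the orange ones only that of Cd79a, at -0.27, does not.

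Apart from Syk, each member's mean differed more between the array sets than between genotypes without the block. The set differences are of plain means, with no adjustment for genotype. For Vav1 the set difference of 0.12 was below the blocked genotype difference of 0.13 in size. Cd79a, Cd79b, Btk, Blnk and Plcg2 were higher on each wide array than on any narrow array, 5 of 8 members against 26.9% of all tested genes. None of the 8 was lower on each wide array, against 13.6% of tested genes. Being higher on each wide array was not particular to the members. It held for 5 of 8 tested co-receptor genes, 12 of 20 adaptor and PI3K genes and 7 of 14 B lineage transcription factors. It also held for 3 of 7 kinase relatives, 8 of 21 downstream genes and 6 of 20 dampeners. The mean of the wide arrays minus that of the narrow ones was 0.84 for Blnk, 0.73 for Btk, 0.50 for Cd79a, 0.50 for Cd79b and 0.32 for Plcg2. It was 0.20 for Blk, 0.13 for Syk and 0.12 for Vav1, whose arrays overlapped between the sets. The median over the members was 0.41, against -0.02 over all tested genes. The sets were found in the data and are no groups of the study, so these differences carry no test. The rise of Cd79a on wide arrays was 0.29 in RRas2-deficient and 0.72 in WT cells, while that of Blnk was 0.83 in RRas2-deficient and 0.84 in WT cells.

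**Figure D3:**
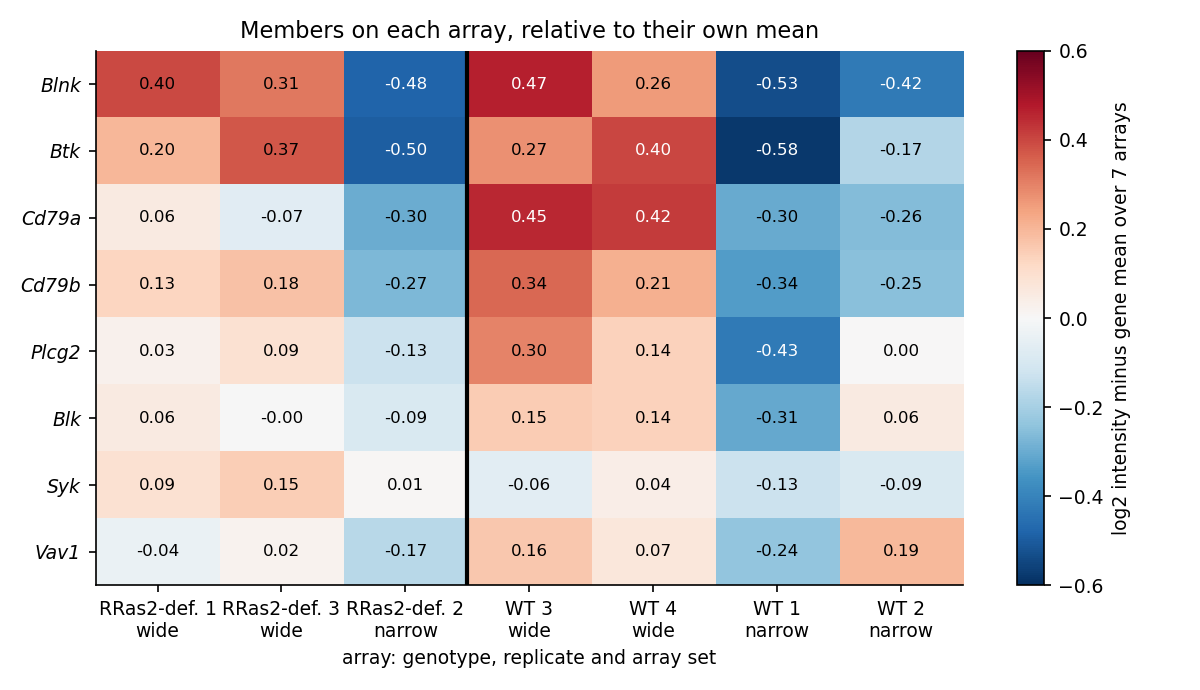
Log2 intensity of each member on each array minus the member's mean over the 7 arrays, with RRas2-deficient arrays left of the line and WT arrays right of it, and genes ordered by their difference between wide and narrow arrays. Blnk runs from -0.53 to 0.47 with the array set, and Syk stays between -0.13 and 0.15.

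Several marker lists of the sorted cell and of other spleen cells moved with the same sets, while the means of the myeloid, natural killer and marginal zone or B-1 cell lists overlapped between the sets. Of 10 germinal centre B cell markers 8 had a probe, among them the master regulator Bcl6, the sort marker Fas (CD95) and the positioning receptor S1pr2, and all 8 were higher on each wide array than on any narrow one. Their mean log2 intensity was 8.63 to 9.79 in RRas2-deficient and 8.76 to 10.16 in WT cells, and 9.69 to 10.16 on wide against 8.63 to 8.77 on narrow arrays. The follicular B cell markers, 7 of 8 measured, ran the other way in the mean, at 6.76 to 7.25 on wide and 7.77 to 8.18 on narrow arrays, and 4 of the 7 were lower on each wide array than on any narrow one. Fcer2a (CD23) was highest on a wide array, and Ccr6 and Cd55 overlapped between the sets too. Ccr7, a homing receptor of naive B cells, read 5.82, 9.10 and 6.22 in RRas2-deficient replicates 1 to 3, against 8.07, 8.33, 5.81 and 6.66 in WT replicates 1 to 4. It was thus highest on the narrow arrays. Immediate early genes, which stimulus or dissociation switches on, averaged 6.50 to 7.27 on wide and 7.78 to 8.17 on narrow arrays. T cell markers (10 of 13 measured) averaged 4.36 to 4.50 in RRas2-deficient and 4.25 to 4.97 in WT cells, highest on WT replicate 1, which was the lowest array for each of the 8 members. Plasma cell markers averaged 6.80 to 7.29 in RRas2-deficient and 7.08 to 7.53 in WT cells. The part of these markers in the members' values was not tested. In sorted bulk cells, fewer cells of a type and less RNA per cell cannot be told apart.

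**Figure D4:**
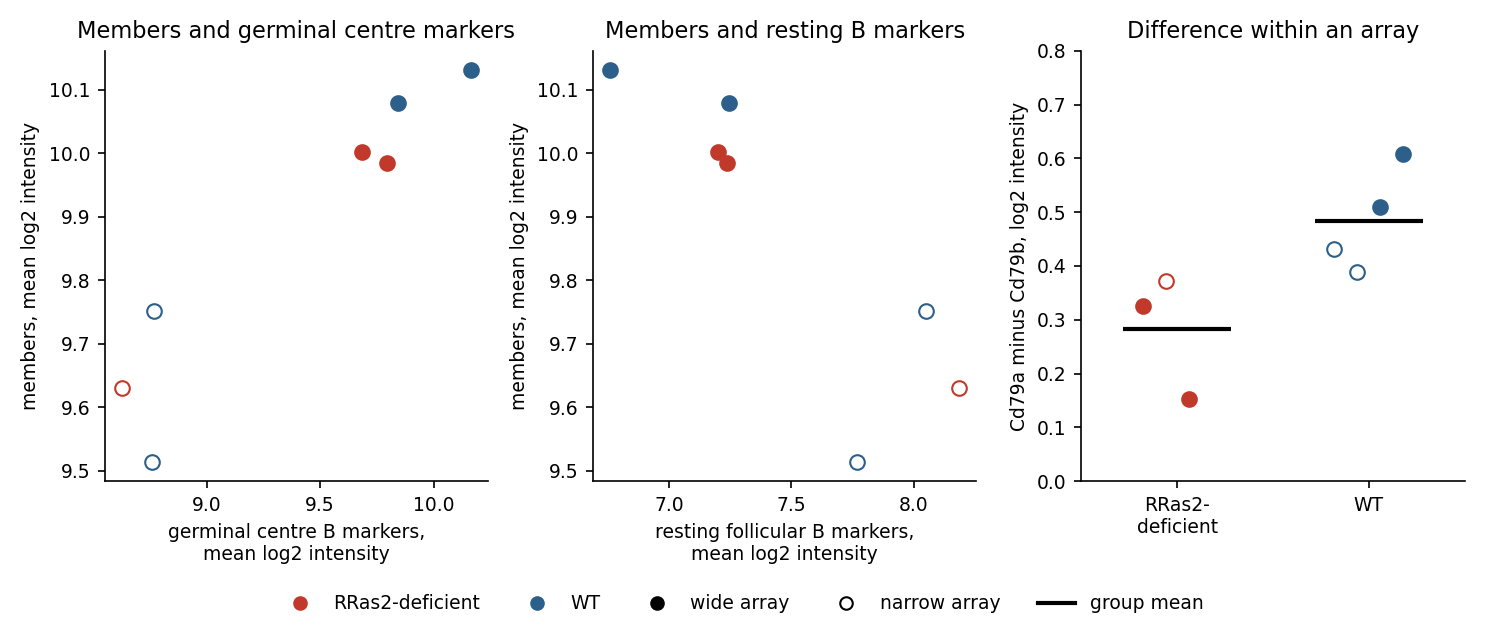
Left and middle, the mean log2 intensity of the 8 members against that of 8 germinal centre B cell markers and of 7 follicular B cell markers, 1 point an array. Right, Cd79a minus Cd79b within each array, with group means as bars. The 3 narrow arrays (open) sit at member means of 9.51 to 9.75 and the 4 wide ones at 9.99 to 10.13, and the 3 RRas2-deficient points on the right lie below the 4 WT points.

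Differences between 2 members on the same array were then taken, for all 28 pairs, after the members' values had been seen. In 2 of the 28 the genotypes did not overlap, against 2.4% of all pairs of tested genes. Cd79a minus Cd79b, the 2 chains of one dimer, was 0.33, 0.37 and 0.15 in RRas2-deficient replicates 1 to 3, against 0.43, 0.39, 0.51 and 0.61 in WT replicates 1 to 4. The 3 RRas2-deficient values were the 3 lowest, though the nearest pair lay 0.37 against 0.39. The mean was 0.28 ± 0.12 (SD, n = 3) in RRas2-deficient and 0.48 ± 0.10 (SD, n = 4) in WT cells, a change of -0.20, or 1.15-fold (two-sided exact permutation p = 0.0571, unadjusted). It was -0.32 within the wide and -0.04 within the narrow arrays.

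Syk minus Vav1 was the other such pair. It was 1.32, 1.36 and 1.31 in RRas2-deficient replicates 1 to 3, against 1.30, 0.90, 0.96 and 1.16 in WT replicates 1 to 4. The RRas2-deficient values were close together and just above the highest WT value. The change was 0.25, or 1.19-fold (two-sided exact permutation p = 0.0571, unadjusted), with 0.26 within the wide and 0.26 within the narrow arrays. A p of 0.0571 was the lowest among the 28 pairs, which share members and so are not independent. A difference within an array shows unequal change of the genes, not which of them changed.

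The other genes of the pathway, from 6 lists, gave 0 calls in either direction by limma (0.0124% of all tested genes) and 0 at an unadjusted p under 0.05 (0.818%). With the set as a block 0 were called (0.0124%) and 6 of 79 genes (7.59%) were at an unadjusted limma p under 0.05, against 10.1% of all tested genes, all 6 with lower means in RRas2-deficient cells. These 6, listed after their values were seen, were Dapp1 (-0.67), Sh2b2 (-0.48), Fgr (-0.46), Ppp3cb (-0.44), Ms4a1 (-0.28) and Elf1 (-0.23). The differences that follow are from the model without the block. Of 8 tested co-receptor and surface partner genes, 2 were higher and 6 lower in the mean in RRas2-deficient cells, with a median log2 difference of -0.09. Those of lowest p were the T cell help receptor Cd40 (-0.16 ± 0.19, log2 difference ± limma SE), the surrogate light chain genes Vpreb2 (-0.11 ± 0.14) and Igll1 (0.06 ± 0.08), and Cr2, the complement receptor CD21 (-0.09 ± 0.19). Of 7 tested relatives of the Src, Syk and Tec kinases, 5 were higher and 2 lower, with a median of 0.09. Fgr differed by -0.39 ± 0.23, Tec by 0.10 ± 0.13, Src by 0.15 ± 0.22 and Yes1 by 0.12 ± 0.21. For Fgr, RRas2-deficient replicate 2 stood apart at 4.48, against 5.35 and 5.44 in the other RRas2-deficient arrays and 5.43 to 5.59 in WT cells.

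Adaptors and phosphoinositide 3-kinase subunits had 7 of 20 higher and 13 lower, with a median of -0.03. Nck2, an SH2 and SH3 adaptor linked to actin, was the 1 of 79 tested genes (1.27%) of the 6 lists without overlap of the genotypes, against 1.08% of all tested genes, at 5.40, 5.16 and 5.12 in RRas2-deficient replicates 1 to 3, against 4.99, 4.79, 5.11 and 5.11 in WT replicates 1 to 4. Its difference was 0.23 ± 0.12 (log2, limma SE), and the nearest arrays of the genotypes were almost equal. The docking protein gene Gab1 differed by 0.22 ± 0.12, Sh2b2 by -0.34 ± 0.33 and Nck1 by -0.14 ± 0.17. Gab1 lay near the limit for dim genes (3.48), with means of 3.62 in RRas2-deficient and 3.40 in WT cells. It passed that limit through its RRas2-deficient arrays. Around Vav and Rac, the exchange factor genes Dock8 and Dock2 differed by -0.07 ± 0.11 and 0.04 ± 0.08 (log2, limma SE), Arhgdib by 0.18 ± 0.37 and Wipf1, a partner of WASP, by -0.05 ± 0.21.

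Genes downstream of PLC-gamma2 and PI3K were 11 higher and 10 lower of 21, with a median of 0.02. The kinase gene Akt2 differed by 0.22 ± 0.17, Malt1, a protease of the NF-kB branch, by -0.11 ± 0.09, Nfatc1, a calcium-driven transcription factor, by 0.11 ± 0.11 and Ikbkg, the NEMO subunit, by -0.08 ± 0.08. B lineage transcription factors were 7 higher and 7 lower of 14, with a median of 0.00. Pax5, which maintains B cell identity, differed by 0.15 ± 0.10, Irf4 by -0.48 ± 0.43, the E2A gene Tcf3 by 0.16 ± 0.20 and Irf8 by -0.07 ± 0.10. The dampeners of antigen receptor signalling, 20 of 22 measured, were 7 higher and 13 lower with a median of -0.05, and 0 of them were called. One dampener of 20, the adaptor gene Sla, had an unadjusted limma p under 0.05, against 0.818% of all tested genes, and is named after its value was seen (-0.42 ± 0.13). With the block 2 of 20, Sla (-0.43) and the ubiquitin ligase gene Cblb (-0.24), were under it, against 10.1%.

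**Figure D5:**
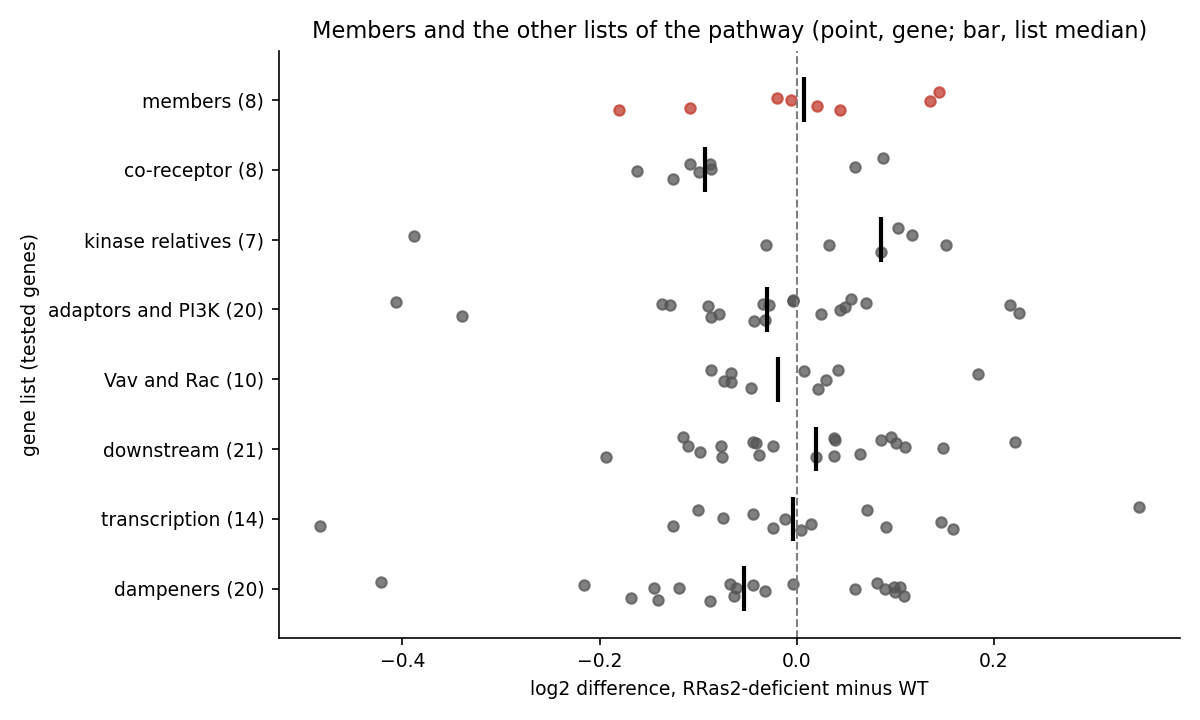
Log2 difference, RRas2-deficient minus WT, of each tested gene of the members, of the 6 neighbouring lists and of the dampeners, with the number tested in brackets. Points are genes and bars are list medians, which lie between -0.09 and 0.09.

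The 5 genes whose profile over the 7 arrays lay nearest the mean profile of the 8 members were Atxn2, Dele1, Ebag9, Ppp6r1 and Traf3ip2. Likeness was the root mean square difference of log2 values after each gene's own mean was taken off. It was 0.02 for Atxn2 and 0.04 for Traf3ip2, the first and last of the 5, against 0.06 for Cd79b, the nearest member, and 0.22 for Blnk, the farthest. All 5 were higher on each wide array than on any narrow one, and their log2 differences between genotypes were from -0.03 ± 0.18 (Dele1) to 0.02 ± 0.20 (Traf3ip2, limma SE). Both traits belong to the members' mean profile and so follow from the choice by likeness. Being nearer than any member follows from it too, as the 5 were picked from all tested genes. Among the members themselves Blk and Vav1 were the most alike (0.08), and Blnk and Vav1 the least (0.37).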

How the data were processed

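Per the labels' protocols, total RNA of sorted splenic cells was biotin-labelled for 1 whole-transcript array per sample. The authors' deposited values are log2 intensities, which per the submitters' processing notes were made with RMA in oligo (versions not given). RMA usually includes quantile normalization, yet the interquartile ranges of these columns differ (2.37 to 2.91), and the labels do not say why. Its median polish can leave ties between arrays. Of 25349 probes, 22225 had 1 gene symbol in the platform annotation. A gene's brightest probe was kept, and a mean level at or above the 25th percentile (3.48) was required, which kept 16136. Tests used limma 3.58.1 under R 4.3.3 (lmFit, eBayes, RRas2-deficient minus WT, Benjamini-Hochberg over all 16136, threshold 0.05). The model was checked on simulated data with independent noise for each gene and no array sets, so the check does not cover the sets seen here. No pair of arrays was identical (correlations 0.948 to 0.993).

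The members, gene lists and array sets were chosen with earlier results of these data known. The named genes are the members, Rras2, the 4 of lowest p in each of 6 lists, any called gene of these, and the 5 of nearest profile. Alternatives were other filters, probe means, quantile normalization, centring, an intensity trend with robust prior, the replicate number as a block, the array set as a block or alone, its interquartile range as a covariate, and leaving out each array. The labels do not say whether same-numbered arrays were paired. Their deviations correlated at -0.52 for replicate 1 (WT narrow, RRas2-deficient wide), 0.75 for replicate 2 (both narrow) and 0.62 for replicate 3 (both wide). Since these values run with the array sets, they cannot decide whether replicate numbers pair the arrays. The count and median of the list around Vav and Rac are not reported here.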

Additional observations from a re-analysis of the deposited data

Results flagged for a closer look

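Among 39 profiles examined over the 4 WT arrays (the named genes and the mean of the members), 3 had 1 array flagged. The flag marks a gap between 1 array and its nearest that is large relative to the range of the 4, however small in log2 units. Chance flags about 1 in 20 where values are not tied. For Cd40 and Igll1 the other 3 WT arrays were equal, so any different value is flagged and that rate does not hold. Cd40 read 7.29 in WT replicate 3, against 7.17 on the other 3 WT arrays. Igll1 read 4.16 in WT replicate 3, against 4.22 on the other 3, which were equal. Pax5 read 9.61 in WT replicate 1, against 9.65 to 9.66 on the others. No member was among them, and groups of 3 were not examined.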

How the results depend on the processing

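The 8 members had 0 calls in each of the 25 alternatives. Cd79a and Vav1 stayed lower and Syk higher in RRas2-deficient cells in all 25 (from -0.44 to -0.01, from -0.20 to -0.06 and from 0.10 to 0.18). The other 5 members changed sign in at least 1. The members' median difference ran from -0.13 to 0.11, and was 0.07 with the replicate block. The count of called genes over the table was 1 with arrays centred, 0 with the replicate block, 0 on the wide and 0 on the narrow arrays alone, and 0 to 2 without 1 array, with or without the set block. Cd79a minus Cd79b ran from -0.32 to -0.04 and Syk minus Vav1 from 0.19 to 0.32. All differences are log2, RRas2-deficient minus WT, and the cause of the changes of sign was not tested. With the mean over probes, the sign turned for Irf8 at 0.063. With a further quantile normalization, the sign turned for Blk at 0.0094, Plcg2 at 0.025 and Atxn2 at 0.031. With arrays centred on medians, the sign turned for Ppp6r1 at -0.0017. With the replicate block, the sign turned for Blk at 0.022, Plcg2 at 0.040, Wipf1 at 0.072, Atxn2 at 0.062 and Dele1 at 0.021. Under the array-set block, the sign turned for Cd79b at -0.065, Btk at -0.080, Blnk at -0.0041, Ebag9 at -0.047, Ppp6r1 at -0.050 and Traf3ip2 at -0.054. With the interquartile range as covariate, the sign turned for Blk at 0.0001, Plcg2 at 0.026, Atxn2 at 0.034 and Dele1 at 0.0012. On the wide arrays only, the sign turned for Cd79b at -0.12, Btk at -0.052, Blnk at -0.0057, Cr2 at 0.093, Arhgdib at -0.030, Tcf3 at -0.093, Ebag9 at -0.088, Ppp6r1 at -0.10 and Traf3ip2 at -0.096. On the narrow arrays only, the sign turned for Blk at 0.037, Btk at -0.12, Blnk at -0.0017, Plcg2 at 0.084, Yes1 at -0.089, Cd40 at 0.073, Vpreb2 at 0.089 and Dock2 at -0.013. Without 1 array (with or without the block), the genes whose sign turned in at least 1 fit ranged as follows: Cd79b -0.12 to 0.16, Btk -0.14 to 0.30, Blnk -0.056 to 0.41, Ebag9 -0.090 to 0.14, Ppp6r1 -0.10 to 0.13, Traf3ip2 -0.11 to 0.16, Blk -0.13 to 0.027, Plcg2 -0.16 to 0.092, Atxn2 -0.11 to 0.12, Dele1 -0.16 to 0.087, Wipf1 -0.22 to 0.10, Yes1 -0.044 to 0.31, Arhgdib -0.030 to 0.47, Src -0.026 to 0.30, Cr2 -0.25 to 0.15, Dock8 -0.14 to 0.036, Tcf3 -0.093 to 0.28, Cd40 -0.30 to 0.077 and Vpreb2 -0.22 to 0.056.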

Other observations

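Plasma cell markers, 8 of 8 tested, had lower means in RRas2-deficient cells, with a median log2 difference of -0.16, and 0 passed the limma test (0 at an unadjusted p under 0.05). In the model that blocks on array set the median was -0.26, with 0 called and 2 of 8, Jchain and Mzb1, at an unadjusted limma p under 0.05, against 10.1% of all tested genes. The 8 markers for marginal zone or B-1 cells were also all lower in the mean, with a median of -0.09 (-0.11 with the block), and 0 were called in either model. At an unadjusted limma p under 0.05 there was 1 of 8 in both models, against 0.818% of all tested genes without and 10.1% with the block. This was Fcrl5 (-0.57 ± 0.11, and -0.59 with the block), named after its value was seen. The genotypes did not overlap for Fcrl5, as for 1.08% of all tested genes. Over all tested genes 51.7% had higher means in RRas2-deficient cells. The genes of a list share arrays, so these counts are descriptions of 7 arrays.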
